A study of Mus musculus with 6 samples.

Results

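The TRIM family is a large family of ubiquitin ligases, and its expression was followed here in mouse heart muscle cells that received HMGB2. Members were the rows of the count table whose gene symbol is Trim followed by a number and at most 1 letter, with a summed count of at least 60 over the 6 libraries. This rule took 46 of the 68 TRIM rows, out of 56691 gene rows in all. The members were divided into 3 muscle members (Trim54, Trim55 and Trim63), 15 antiviral members and 28 other members. Of the 22 TRIM rows below the minimum, 6 had no count, and the highest had a summed count of 46. The member closest to the minimum was Trim43b with a summed count of 72, followed by one with 109. All 46 members passed the filter on low counts and were tested, and 10 of them had a mean under 5 CPM in both groups. CPM is a gene's count relative to the scaled library total, and it does not correct for transcript length.

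The cells were primary cardiomyocytes from the hearts of neonatal mice. Both groups received an adenovirus of serotype 5 with the cTNT promoter, the promoter of cardiac troponin T, which drives expression in cardiomyocytes. In 3 libraries the virus carried HMGB2, a chromatin protein that bends DNA, and in the 3 others it was the vector alone, so the vector cells had been exposed to adenovirus too. The labels call the genotype control in the vector samples and overexpression in the others, and the sources used here give no strain, age in days, virus dose, harvest time or origin of the HMGB2 sequence. The labels do not say whether replicates were separate cultures or animals, so p-values reflect only the variation among these libraries, and that may be technical.

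TRIM proteins share a RING domain, B-boxes and a coiled coil at their N-terminus, and most act as ubiquitin ligases, which attach ubiquitin to other proteins. Muscle expresses a small group of them, the MuRF proteins, which sit at the sarcomere and on microtubules and mark muscle proteins for breakdown. Many other TRIM proteins act in innate immunity, where they restrict viruses or tune the signals that lead to interferon, and several of their genes are themselves induced by interferon.

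The libraries held between 12498215 and 16618365 counts, and 15429 genes were tested with edgeR's quasi-likelihood test. Hmgb2 was at 46.8, 44.8 and 36.3 CPM in vector 1 to 3 and at 175, 196 and 182 CPM in HMGB2 1 to 3. These counts do not tell viral from endogenous transcripts, and whether they hold all viral ones is not known. Of the 10 cardiomyocyte markers, 7 rose and none fell, and their summed level was 16333 to 17308 CPM with the vector and 22974 to 25193 CPM with HMGB2. Of 9 macrophage and leukocyte markers, 8 were tested and 4 fell, with sums of 95.8 to 130 (vector) and 71.2 to 82.8 CPM (HMGB2). Endothelial markers (2 of 6 fell) summed to 2460 to 2494 and 2127 to 2174 CPM, and fibroblast markers (2 of 8 fell) to 4954 to 5028 and 4404 to 4497 CPM. Of 6 smooth muscle markers, 1 rose and 1 fell, with sums of 1104 to 1220 and 1102 to 1221 CPM. No listed marker was at 0 in either group. Beside these counts, 14.4% of all genes tested rose and 10.8% fell. Several of the markers' falls did not pass with 1 library left out. Ptprc was not called without vector 2 (edgeR adjusted p = 0.0678), vector 3 (0.0824), HMGB2 1 (0.0642) or HMGB2 3 (0.0606), and 8 of the 14 alternative settings lost its call. The call of Emcn held in 5 of 14 alternatives and was lost when any 1 library other than HMGB2 3 was left out (adjusted p = 0.0659 to 0.180). Pecam1 was not called without vector 2 (0.0711), vector 3 (0.0537), HMGB2 1 (0.0853) or HMGB2 2 (0.0699), Dcn without HMGB2 1 (0.0771) or HMGB2 2 (0.0714), Lyz2 without vector 2 (0.0643) or HMGB2 2 (0.0579), and C1qa without vector 2 (0.0726). Vector 1 and HMGB2 3 deviated from their group means in a like way (Pearson's r of 0.521 across genes, which are not independent). Values without both are given beside the members whose call they change. Both were picked from these data, and leaving them out narrows the spread within groups, so a call gained this way is no independent result. Over all genes, 3265 rose and 2986 fell without both, against 2224 and 1662 with all 6 libraries. In bulk samples, more cells of a type and more RNA per cell cannot be told apart.

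Of the 46 members, 18 rose with HMGB2, 2 fell and 26 did not pass an adjusted p of 0.05. Over all genes tested, 14.4% rose and 10.8% fell. In 23 members the groups did not overlap, 18 of them with all HMGB2 libraries above all vector libraries. Over all 15429 genes tested the groups did not overlap in 40.5%, and 3330 genes had all HMGB2 libraries above all vector libraries. The rises lay mostly in 2 of the 3 classes. The lists behind these classes were chosen with earlier results of these data known, so the contrast depends on that choice. Among the muscle members 2 rose and 1 did not pass the test, with a median log2 fold change of 1.60. Among the antiviral members 11 rose, none fell and 4 did not pass, with a median of 0.85, a fold of 1.80. Among the 28 others 5 rose, 2 fell and 21 did not pass, with a median of -0.11. The median over all members was 0.10 and over all genes tested -0.0022. Together the TRIM rows took 0.185% ± 0.00308 of the counts with the vector and 0.221% ± 0.000954 with HMGB2 (SD, n = 3 each), and no HMGB2 library overlapped the vector libraries.

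**Figure D1:**
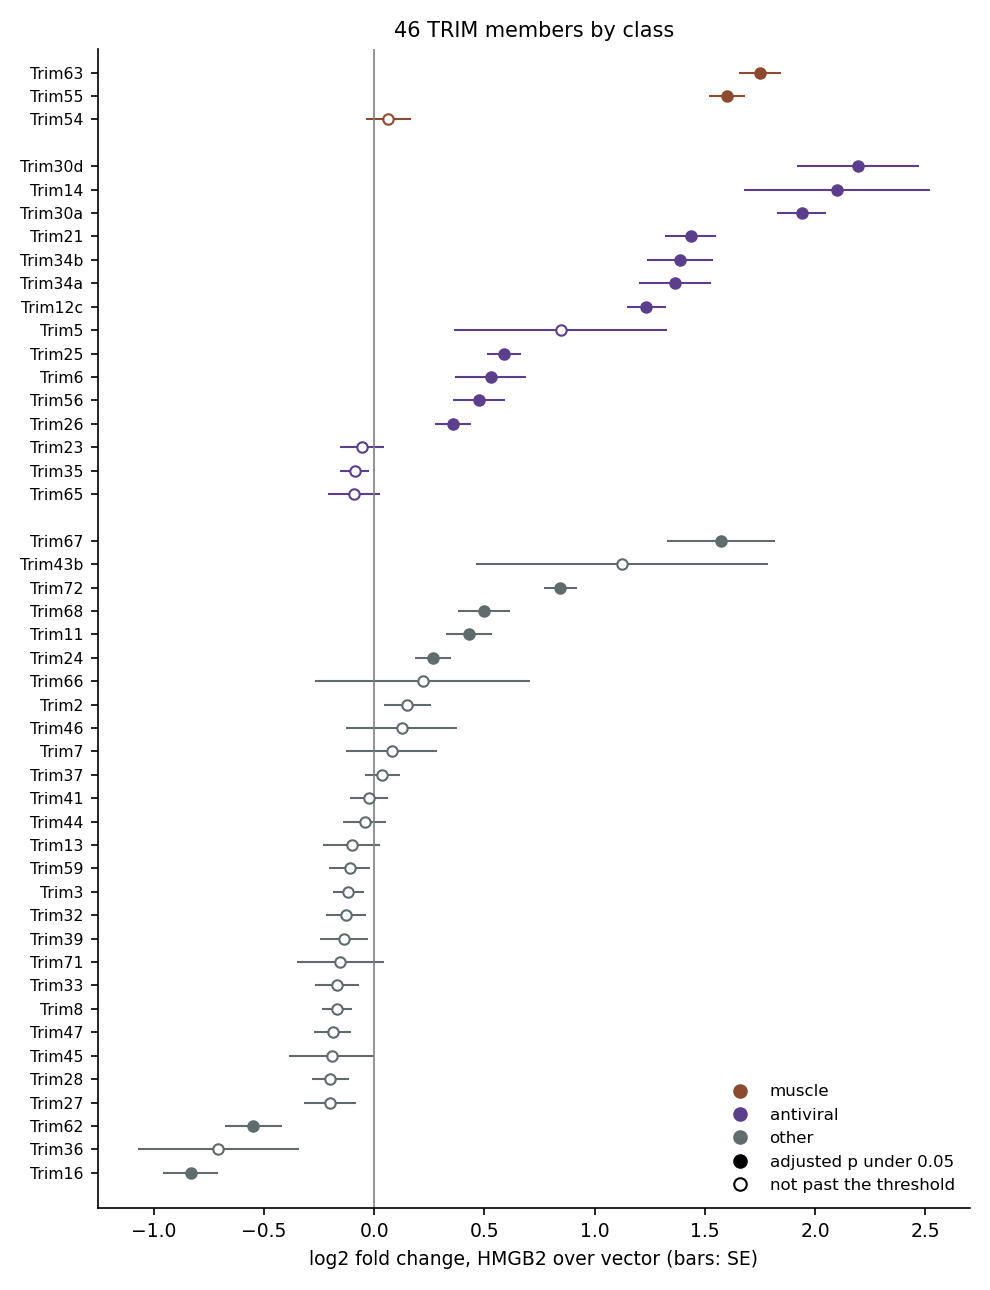
Log2 fold change of HMGB2 over vector (x axis, bars are the SE) for each of the 46 members, arranged by class, with filled points for an adjusted p under 0.05 in edgeR. The muscle members Trim55 (1.60) and Trim63 (1.75) and most antiviral members lie to the right of 0, while most other members lie close to 0.

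Of the MuRF group, Trim55 and Trim63 rose 3.03-fold and 3.36-fold with HMGB2, while Trim54 did not pass the test. Trim63 (MuRF1) is the ligase best known from muscle atrophy, where it marks myosin and other thick filament proteins for breakdown. Trim63 (ENSMUSG00000028834, GRCm38 chr4:134315120-134329629) was at 20.3, 19.4 and 17.7 CPM in vector 1 to 3 and at 59.99, 62.6 and 70.4 CPM in HMGB2 1 to 3. The lowest HMGB2 library was far above the highest vector library. The means were 19.2 ± 1.29 and 64.3 ± 5.44 CPM (SD, n = 3 each), 3.36-fold higher, with a log2 fold change of 1.75 (edgeR adjusted p = 2.95e-06, SE 0.10).

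Trim55 (MuRF2) binds the titin of the sarcomere and microtubules and moves to the nucleus when the muscle is not under load. Trim55 (ENSMUSG00000060913, GRCm38 chr3:19644474-19692421) was at 38.8, 37.1 and 40.6 CPM in the vector libraries and at 117, 126 and 110 CPM in the HMGB2 libraries. All 3 HMGB2 libraries were high, and the spread within either group was small beside the gap between them. The means of 38.9 ± 1.77 and 118 ± 8.04 CPM (SD, n = 3 each) gave a 3.03-fold rise, a log2 fold change of 1.60 (edgeR adjusted p = 2.02e-06, SE 0.08).

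Trim54 (MuRF3) binds and stabilises microtubules and can pair with the other MuRF proteins. Trim54 (ENSMUSG00000062077, GRCm38 chr5:31116712-31137630) was at 22.7, 21.2 and 23.6 CPM with the vector and at 24.4, 20.8 and 25.3 CPM with HMGB2. The groups overlapped, and HMGB2 2 held the lowest value of all 6 libraries. The log2 fold change was 0.06 (edgeR adjusted p = 0.699, SE 0.10), and it did not pass the threshold in any of the 14 alternative settings. Of the Trim54 exons, 26.6% overlap an antisense gene that was not tested, and the sources used here do not state whether counting used strand. The changes of Trim54 and of its relatives were each tested against the vector and not against each other.

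The unequal change altered the makeup of the MuRF group. On the FPKM scale, which divides by transcript length and so allows levels of different genes to be compared, Trim54 and Trim55 stood close together with the vector, at 15.5 and 14.5 FPKM, and Trim63 was lower at 6.68 FPKM. With HMGB2 the levels were 16.5, 44.6 and 22.8 FPKM, so that Trim54 went from the most to the least abundant of the group. The summed FPKM of the group was 36.7 ± 1.48 with the vector and 83.8 ± 1.52 with HMGB2, 2.28 times as much. The share of Trim54 in that sum was 42.1%, 41.5% and 43.3% in the vector libraries and 20.7%, 17.2% and 21.01% in the HMGB2 libraries. Trim55 took 39.5% ± 0.709 of the sum with the vector and 53.2% ± 3.57 with HMGB2, and Trim63 took 18.2% ± 1.55 and 27.2% ± 2.07 (SD, n = 3 each). The groups did not overlap in any of these shares. A permutation of 3 against 3 libraries cannot give a two-sided p below 0.1, so no test of them is given.

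**Figure D2:**
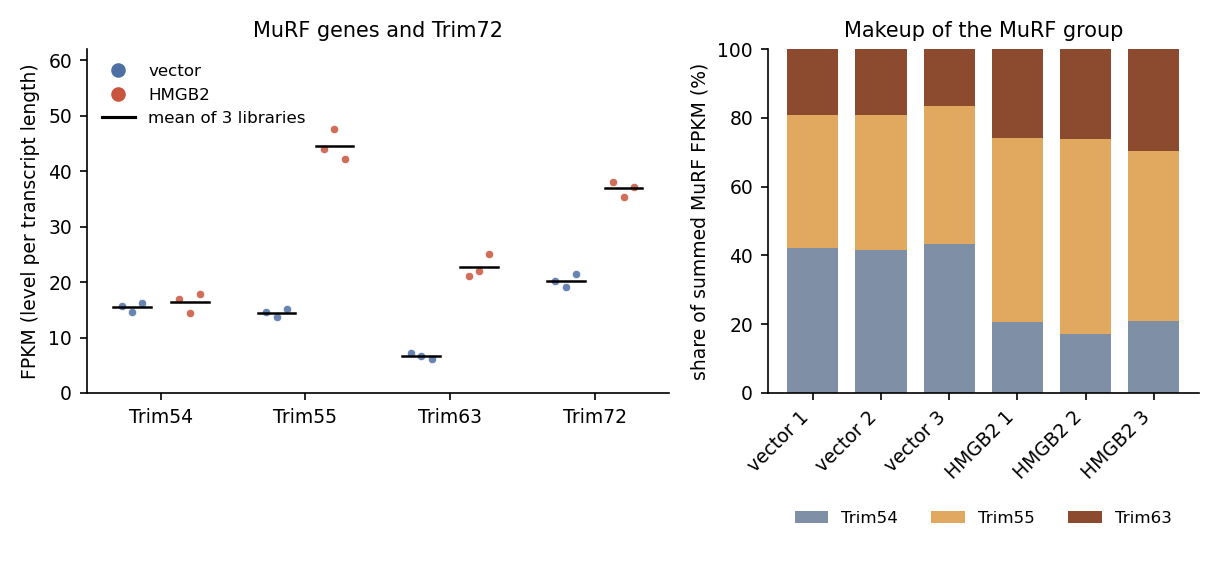
Left, FPKM of the MuRF genes and Trim72 in each library (points, with black lines for the mean of 3 libraries). Right, share of the summed MuRF FPKM that each gene took in each library, in percent. The groups overlap for Trim54, and its share is 41.5% to 43.3% in the vector libraries and 17.2% to 21.01% in the HMGB2 libraries.

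Trim72 (MG53), which helps to seal breaks in the membrane of muscle cells, is the striated muscle member outside the MuRF group, and it rose less than Trim55 or Trim63 on the CPM scale. Trim72 (ENSMUSG00000042828, GRCm38 chr7:128003949-128011033) was at 45.4, 43.2 and 48.4 CPM with the vector and at 85.1, 79.1 and 81.9 CPM with HMGB2. The groups were well apart. The fold was 1.80, from 45.7 ± 2.61 to 82.0 ± 2.98 CPM (SD, n = 3 each), with a log2 fold change of 0.84 (edgeR adjusted p = 5.6e-05, SE 0.08). Exons of Trim72 overlap an antisense gene over 27.6% of their length, and that gene had a mean near 1 CPM and did not pass the test.

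Cardiomyocyte markers moved with these rises, and their levels can be set beside them. Per 1000 CPM of the summed markers, Trim55 was at 2.30 ± 0.131 CPM with the vector and at 4.83 ± 0.208 CPM with HMGB2, a ratio of 2.11. Trim63 was at 1.13 ± 0.105 and 2.65 ± 0.366 CPM on the same scale, a ratio of 2.34. Both therefore rose more than the summed markers did. Trim72 was at 2.699 ± 0.175 and 3.37 ± 0.201 CPM, a ratio of 1.25. Trim54 was at 1.39, 1.22 and 1.37 CPM per 1000 marker CPM in the vector libraries and at 0.969, 0.830 and 1.10 CPM in the HMGB2 libraries. On this scale all HMGB2 libraries were below all vector libraries for Trim54, with a ratio of 0.728. Nppa made up the largest part of the summed markers and did not pass, at 6801 CPM with the vector and 7423 CPM with HMGB2. Fold changes of single markers went from 1.09 (Nppa) to 2.71 (Pln), so the ratios given here depend on the markers chosen. The part of the markers' rise in the change of each gene was not tested.

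Bases upstream of Trim63 are shown because FOXO factors are the textbook activators of this gene in muscle wasting. The stretch is RefSeq sequence on GRCm38.p6, chr4:134314906-134314952, plus strand, with capitals for a match to the FOXO motif GTAAACA, here read on the other strand, which lies 194 to 188 bases before the start.
Trim63 upstream: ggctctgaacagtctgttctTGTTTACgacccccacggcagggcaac
The same motif, searched on both strands in windows from 250 bases before to 50 after each start, was in 3.65% of all 32851 windows. Of the 35 members with a window (47 windows in all), Trim63 and Trim67 held it. Trim55 had no window. A match is a description of these letters only.

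Of 10 genes tested that encode described regulators of Trim63, 2 rose, none fell and 8 did not pass. Their median log2 fold change was 0.0078. The 2 rises of 10 were near the share over all genes tested, of which 14.4% rose. Mef2c, a muscle transcription factor, went from 44.8 ± 0.983 to 63.6 ± 4.33 CPM (SD, n = 3 each), with a log2 fold change of 0.51 (edgeR adjusted p = 0.00140, SE 0.08). Foxo4 had a log2 fold change of 0.36 (edgeR adjusted p = 0.0273), and this did not hold without vector 2 (0.0907), vector 3 (0.0780) or HMGB2 1 (0.112). Foxo1 and Foxo3, the members of the FOXO family most often tied to atrophy, did not pass the threshold, with log2 fold changes of -0.14 and 0.01. Both were named after their values were seen.

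Among 20 other ubiquitin ligases of muscle, 9 rose, 1 fell and 10 did not pass, with a median log2 fold change of 0.14. Beside this, 14.4% of all genes tested rose and 10.8% fell. Fbxo32 (atrogin-1), the ligase usually measured beside Trim63 in atrophy, was at 11.9, 10.4 and 14.3 CPM with the vector and at 38.4, 41.0 and 37.2 CPM with HMGB2. These groups did not overlap, and the log2 fold change was 1.66 (edgeR adjusted p = 1.41e-05, SE 0.12), close to that of Trim63. Asb11, Asb2 and Rnf207, a heart ligase that affects repolarisation, had log2 fold changes of 1.77, 1.33 and 1.94 (edgeR adjusted p = 7.61e-06, 7.76e-05 and 8.5e-05). The one that fell was Mdm2, the ligase of p53, with a log2 fold change of -0.45, named after its value was seen.

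Of 7 ubiquitin-conjugating enzymes described as partners of MuRF proteins, 2 passed the threshold, both lower with HMGB2, while 10.8% of all genes tested fell. Ube2d3 fell from 354 ± 11.1 to 255 ± 13.2 CPM (SD, n = 3 each), a log2 fold change of -0.47 (edgeR adjusted p = 0.00123, SE 0.07). Ube2j2 had a log2 fold change of -0.37 (edgeR adjusted p = 0.0148), which was lost without vector 3 (0.0509), HMGB2 1 (0.0595) or HMGB2 2 (0.0699). Of 12 genes for MuRF binding partners and described substrates, 9 rose, 1 fell and 2 did not pass, with a median log2 fold change of 0.64. This list shares genes with the cardiomyocyte markers, and 14.4% of all genes tested rose. Actc1 (cardiac actin), Tcap (a cap protein of titin) and Mybpc3 (myosin-binding protein C) rose, with log2 fold changes of 1.40, 1.31 and 0.98 (edgeR adjusted p = 3.16e-06, 0.000398 and 1.32e-05). The one that fell was Sqstm1 (p62), an adaptor that carries ubiquitinated cargo to autophagy, from 724 ± 42.3 to 424 ± 12.7 CPM, with a log2 fold change of -0.77 (edgeR adjusted p = 7.39e-05).

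Most antiviral members rose with HMGB2, by 1.28-fold (Trim26) to 4.58-fold (Trim30d). Trim30a dampens signalling through NF-kappaB downstream of Toll-like receptors. Trim30a (ENSMUSG00000030921, GRCm38 chr7:104409025-104465193) was at 24.7, 22.1 and 18.1 CPM with the vector and at 79.9, 87.5 and 81.2 CPM with HMGB2. All of its HMGB2 libraries lay above its vector libraries by a wide margin. The means of 21.6 ± 3.32 and 82.9 ± 4.07 CPM (SD, n = 3 each) gave a 3.84-fold rise, with a log2 fold change of 1.94 (edgeR adjusted p = 3.79e-06, SE 0.11). Trim30d, its neighbour, was at 0.882, 1.46 and 1.07 CPM with the vector and at 4.21, 6.76 and 4.91 CPM with HMGB2, 4.58-fold higher (log2 fold change 2.195, edgeR adjusted p = 0.000432, SE 0.28).

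Trim12c, a mouse relative of the retrovirus restriction factor Trim5, was at 26.1, 23.1 and 22.4 CPM with the vector and at 53.7, 59.2 and 55.3 CPM with HMGB2, 2.35-fold higher (log2 fold change 1.23, edgeR adjusted p = 1.46e-05, SE 0.09). Trim34b was at 3.29, 4.31 and 4.08 CPM with the vector and at 10.6, 10.7 and 9.46 CPM with HMGB2, and it rose 2.62-fold (edgeR adjusted p = 0.000171). Trim34a was at 3.61, 3.07 and 2.93 CPM with the vector and at 7.21, 8.76 and 8.79 CPM with HMGB2, and it rose 2.58-fold (edgeR adjusted p = 0.00033). In none of these genes did the groups overlap. Their counts are uncertain for shared reads, since all of the Trim34b transcript is 98.7% identical to Trim34a, and Trim12c shares 29.8% of its transcript with Trim12a. Exons of Trim34a also overlap an antisense gene over 23.5% of their length.

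Trim5 itself was low, at 1.76, 0.438 and 0.501 CPM with the vector and at 1.92, 1.38 and 1.45 CPM with HMGB2. Vector 1 lay within the HMGB2 range, so the groups overlapped, and the log2 fold change of 0.85 (SE 0.48) missed the threshold (edgeR adjusted p = 0.243). Without vector 1 the log2 fold change was 1.74 (adjusted p = 0.0100), and without both vector 1 and HMGB2 3 it was 1.81 (adjusted p = 0.00355). Vector 1, with 22 counts against 6 and 7 in vector 2 and 3, is what made the groups overlap. Leaving it out is therefore no independent sign of a rise. Of the Trim5 transcript, 66.8% is nearly identical to Trim12c, and reads of this more abundant gene may be counted for Trim5.

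Trim21 is a cytosolic receptor for antibody that directs antibody-coated virus to the proteasome. Trim21 (GRCm38 chr7:102557921-102565486) was at 8.50, 7.60 and 9.59 CPM with the vector and at 23.4, 22.0 and 24.1 CPM with HMGB2, and the groups stood well apart. It rose 2.705-fold, from 8.56 ± 0.997 to 23.2 ± 1.06 CPM (SD, n = 3 each), with a log2 fold change of 1.44 (edgeR adjusted p = 2.68e-05, SE 0.11). Trim25, which modifies the RNA sensor RIG-I with ubiquitin, rose less. Trim25 (GRCm38 chr11:88999376-89020293) was at 114, 126 and 126 CPM with the vector and at 190, 189 and 172 CPM with HMGB2. Its groups did not overlap, and the rise was 1.504-fold (log2 fold change 0.59, edgeR adjusted p = 0.000536, SE 0.08). Per length, Trim25 went from 21.03 to 32.08 FPKM, the highest level per length among the antiviral members that rose.

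Trim14, an adaptor of antiviral signalling at mitochondria that lacks a RING domain, was at 0.160, 0.803 and 0.715 CPM with the vector and at 2.22, 3.10 and 2.12 CPM with HMGB2. All HMGB2 libraries were above the vector libraries, and the log2 fold change was 2.10 (edgeR adjusted p = 0.00604, SE 0.42). At these low levels the size of the change is loosely set. Exons of Trim14 overlap Nans on the opposite strand over 31.3% of their length, and Nans had a log2 fold change of 0.0082.

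The 3 remaining rises were small and less stable. Trim56, which acts in DNA and RNA sensing, was at 74.2, 89.5 and 90.3 CPM with the vector and at 131, 124 and 98.7 CPM with HMGB2 (1.39-fold, edgeR adjusted p = 0.0174), not called without HMGB2 1 (0.0791) or HMGB2 2 (0.0699). Trim26 was at 44.0, 41.6 and 46.5 CPM with the vector and at 54.3, 59.7 and 55.3 CPM with HMGB2 (1.28-fold, edgeR adjusted p = 0.0102), not called without vector 2 (0.0528) or HMGB2 2 (0.0547). In both genes the HMGB2 libraries lay above the vector libraries. Trim6, which makes free ubiquitin chains that activate an interferon kinase, was at 5.29, 5.04 and 5.65 CPM with the vector and at 8.596, 8.21 and 6.30 CPM with HMGB2 (1.44-fold, edgeR adjusted p = 0.0393). The Trim6 call was lost without vector 1 (0.0549), vector 2 (0.125), vector 3 (0.0759), HMGB2 1 (0.146) or HMGB2 2 (0.125), and by DESeq2 (0.101).

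Apart from Trim5, 3 antiviral members did not pass the threshold. Trim35 was at 174, 171 and 169 CPM with the vector and at 156, 166 and 161 CPM with HMGB2. Its HMGB2 libraries were all below its vector libraries, but the log2 fold change was only -0.09 (edgeR adjusted p = 0.361). Trim65, which modifies the RNA sensor MDA5, and Trim23, which carries a GTPase domain, had log2 fold changes of -0.09 and -0.05 (edgeR adjusted p = 0.616 and 0.735). Over the 15 antiviral members the summed level was 98.7 ± 0.501 FPKM with the vector and 149 ± 4.58 FPKM with HMGB2 (SD, n = 3 each), 1.51 times as much.

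**Figure D3:**
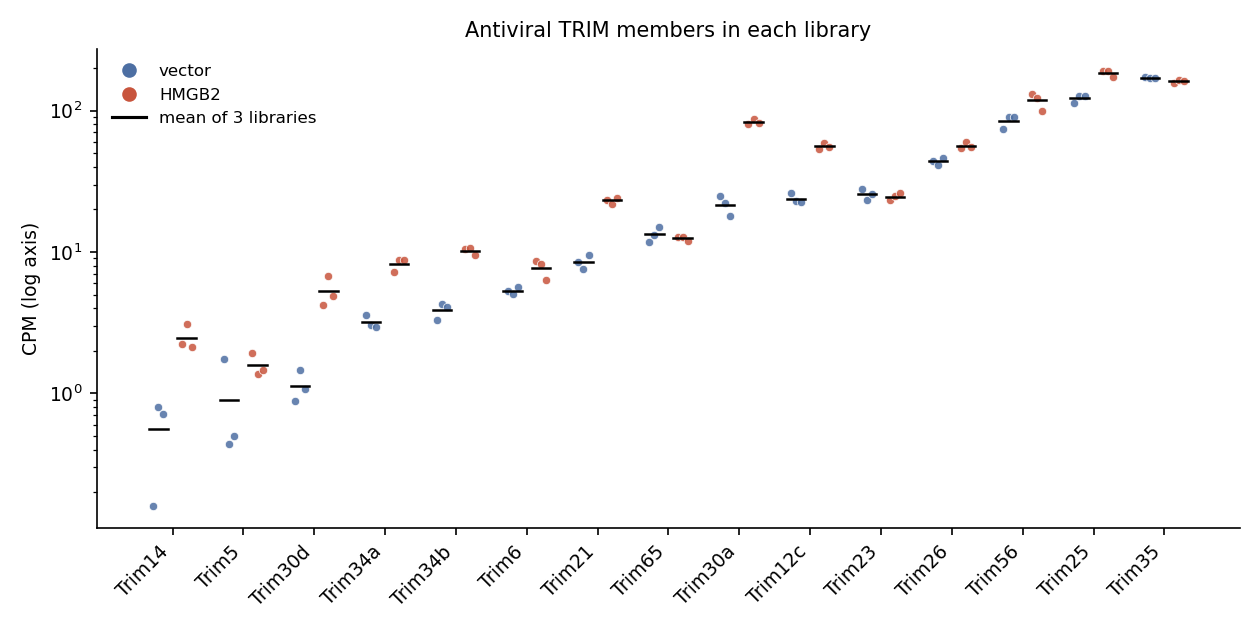
CPM of the 15 antiviral members in each library (log axis, points for libraries and black lines for the mean of 3). HMGB2 libraries lie above vector libraries in 11 members, overlap with them in Trim5, Trim65 and Trim23, and lie below them in Trim35.

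Of these members, 7 lie in the TRIM cluster of chromosome 7 (GRCm38 chr7:104218793-104507849), a group of genes that arose by duplication. The cluster holds 10 TRIM rows in the order Trim6, Trim34a, Trim5, Trim12a, Trim34b, Trim12c, Trim30b, Trim30c, Trim30a and Trim30d. Trim12a, Trim30b and Trim30c were below the count minimum, with summed counts of 4, 9 and 5. Of the 7 members there, 6 rose and 1, Trim5, did not pass the threshold. In chromosomal order the log2 fold changes of the 7 members were 0.53, 1.37, 0.85, 1.39, 1.23, 1.94 and 2.195. They did not climb steadily along the cluster. One further gene within these bounds was tested, Gm16464, and it did not pass, with a log2 fold change of -0.18. Trim34a and Trim34b, and Trim12c and Trim5, share transcript sequence as given above, so their counts are not independent of each other.

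**Figure D4:**
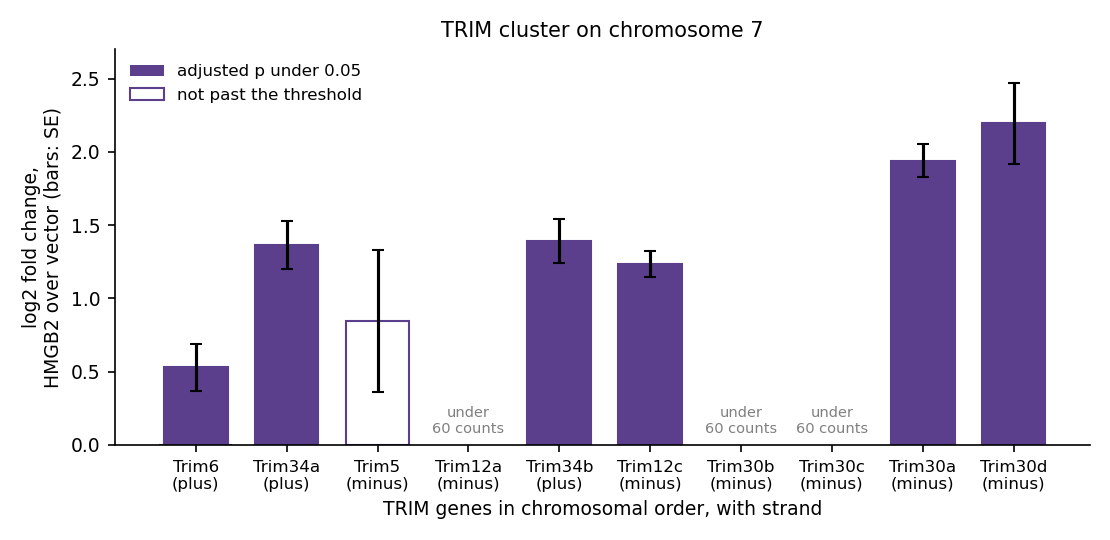
Log2 fold change of HMGB2 over vector (bars, with the SE) for the TRIM members of the chromosome 7 cluster, in chromosomal order with strand. Trim5 is the one open bar (0.85, not past the threshold), and the rises of Trim30a and Trim30d are 1.94 and 2.195.

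The promoters of these genes are shown because interferon-regulated genes are known for a motif, the interferon-stimulated response element. Pairs of genes in the cluster also carry it in near-identical stretches. This element was searched as GAAANNGAAA on both strands in RefSeq windows on GRCm38.p6 from 250 bases before to 50 after each start. Each stretch is printed on the strand of its gene, and capitals mark the matches, which read as the reverse complement of the motif. The stretches are at chr7:104465201-104465249 (Trim30a, minus strand), chr7:104507862-104507910 (Trim30d, minus), chr7:104353350-104353398 (Trim12c, minus), chr7:104288127-104288175 (Trim5, minus) and chr17:36836966-36837021 (Trim26, plus).
Trim30a: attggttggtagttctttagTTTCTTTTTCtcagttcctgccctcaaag
Trim30d: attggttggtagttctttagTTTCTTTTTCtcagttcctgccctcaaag
Trim12c: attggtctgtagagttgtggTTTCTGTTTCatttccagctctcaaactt
Trim5: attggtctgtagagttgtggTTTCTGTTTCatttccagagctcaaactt
Trim26: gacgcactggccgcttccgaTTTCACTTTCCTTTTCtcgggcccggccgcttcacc
Trim30a and Trim30d were identical over all 49 bases, and Trim12c and Trim5 over 47 of 49. Trim30a and Trim12c shared 25 of 49. Trim26 lies outside the cluster and had 2 overlapping matches. A second window of Trim30a, at another start, held a match 2 to 11 bases past that start (chr7:104446114-104446123, minus strand). Past the start, Trim21 held GAAACTGAAAGTGAAA, with 2 overlapping matches in the motif's own direction, 13 to 28 bases in (chr7:102565454-102565469, minus strand), and Trim34a held TTTCAGTTTC, the reverse complement (chr7:104244467-104244476, plus strand).

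The motif was in 3.44% of all 32851 windows. Members were counted by gene, so a match in any of a member's windows counted, and the 35 members had 47 windows. Of the 35 members with a window, 8 held it, which were 7 of 12 antiviral members, 0 of 2 muscle members and 1 of 21 others (Trim2, whose log2 fold change of 0.15 did not pass). Of the 8 members with the motif 6 rose, and of the 27 without it 9 rose. Over all tested genes with a window, 26.5% of 408 with the motif rose and 15.1% of 10595 without it. The median log2 fold change of the members was 1.3 with the motif and 0.0372 without. As 7 of the 8 members with the motif were antiviral, this contrast overlaps that of the classes. Of the 12 antiviral members with a window, all with the motif rose except Trim5. Those without it were Trim25, Trim56, Trim6 and Trim34b, which rose, and Trim23, which did not pass. Trim30a and Trim30d, and Trim12c and Trim5, carry near-identical stretches, so they are not independent members here. Another interferon motif, TTCNNNGAA, was in 8.30% of all windows and in 2 members, Trim45 and Trim46, neither of which passed the threshold. The E-box CANNTG was in 72.3% of all windows and in 71.4% of the members with a window.

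Genes of interferon signalling moved in the same libraries. Of 20 signalling factors and classical interferon-stimulated genes tested, 16 rose, none fell and 4 did not pass, with a median log2 fold change of 1.79. For comparison, 14.4% of all genes tested rose and 10.8% fell. Rsad2 (viperin), an antiviral enzyme, went from 17.2 ± 1.55 to 139 ± 11.6 CPM (SD, n = 3 each), with a log2 fold change of 3.01 (edgeR adjusted p = 4.59e-07, SE 0.10). Ifit1, which binds viral RNA, Mx2, an antiviral GTPase, and Ifi44 had log2 fold changes of 2.67, 2.14 and 2.45 (edgeR adjusted p = 6.88e-07, 1.49e-06 and 6.88e-07). Of 14 genes of RIG-I and DNA sensing, the pathway in which several TRIM proteins act, 7 rose and 7 did not pass, with a median of 0.46. Ddx58, which encodes RIG-I, the target of Trim25, rose from 121 ± 4.04 to 256 ± 13.3 CPM, with a log2 fold change of 1.08 (edgeR adjusted p = 9.53e-06, SE 0.07). Ifih1, which encodes MDA5, the target of Trim65, rose from 36.8 ± 1.74 to 131 ± 6.74 CPM, with a log2 fold change of 1.83 (edgeR adjusted p = 9.62e-07). Eif2ak2 (PKR) and Zbp1, sensors of RNA and of Z-form nucleic acid, had log2 fold changes of 1.17 and 2.47. Of the 8 macrophage and leukocyte markers tested, 4 fell and 4 did not pass, among them Adgre1 with a log2 fold change of 0.01. Ptprc, the common leukocyte marker, was at 3.58 ± 0.330 CPM with the vector and 1.89 ± 0.553 CPM with HMGB2. C1qa was at 2.04 ± 0.259 and 0.781 ± 0.315 CPM. Both levels were low, and their lost calls are given above. The part of cell makeup in the rises of the antiviral members and the interferon genes was not tested.

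Among the 28 other members, 7 passed the threshold, Trim72 among them, and their sum hardly differed between groups (292 ± 6.92 FPKM with the vector and 293 ± 7.95 FPKM with HMGB2). The largest fall of the whole family was that of Trim16, which acts in the response to oxidative stress and to damaged membranes. Trim16 (GRCm38 chr11:62820231-62850808) was at 31.0, 36.9 and 43.0 CPM with the vector and at 19.9, 22.5 and 20.1 CPM with HMGB2. The vector libraries varied widely but all lay above the HMGB2 libraries, and the fold was 1.78 lower (log2 fold change -0.83, edgeR adjusted p = 0.00123, SE 0.12). Its exons overlap those of Fbxw10 on the same strand over 5.19% of their length, and Fbxw10 fell too, by 2.42 on the log2 scale, from 3.42 to 0.644 CPM. Trim62 (GRCm38 chr4:128883580-128911328) was at 10.9, 12.1 and 12.2 CPM with the vector and at 9.14, 7.59 and 7.33 CPM with HMGB2 (log2 fold change -0.55, edgeR adjusted p = 0.0137). The groups of Trim62 did not overlap, but the call was lost without vector 2 (0.0528), vector 3 (0.0501) or HMGB2 2 (0.0581).

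Trim67, known from axon guidance in neurons, rose from a low level. It was at 0.962, 1.02 and 1.57 CPM with the vector and at 3.67, 3.59 and 3.45 CPM with HMGB2, 2.98-fold higher (log2 fold change 1.57, edgeR adjusted p = 0.00150, SE 0.25). Trim68 was at 12.7, 10.2 and 10.4 CPM with the vector and at 15.03, 16.6 and 15.3 CPM with HMGB2 (1.41-fold, edgeR adjusted p = 0.0143), not called without vector 2 (0.0642), vector 3 (0.0566) or HMGB2 2 (0.0588). Both rises left the groups apart. Trim11 was at 28.3, 23.2 and 27.8 CPM with the vector and at 38.8, 34.5 and 33.5 CPM with HMGB2 (1.347-fold, edgeR adjusted p = 0.0162), not called without vector 2 (0.0660) or HMGB2 1 (0.0713).

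Trim24, a nuclear cofactor that reads histone marks, was at 140, 158 and 159 CPM with the vector and at 188, 192 and 170 CPM with HMGB2. The rise was 1.202-fold (edgeR adjusted p = 0.0400) and did not hold when HMGB2 1 (0.139), HMGB2 2 (0.153), vector 1 (0.0574), vector 2 (0.0848) or vector 3 (0.0714) was left out. Of the 4 tested members of the TIF1 group of chromatin cofactors, Trim24 alone passed. Trim28 (KAP1), which silences retroelements with zinc finger proteins, had a log2 fold change of -0.20 (edgeR adjusted p = 0.117). Trim28 passed without both vector 1 and HMGB2 3 (-0.18, adjusted p = 0.00191), as did Trim33 (-0.25, 0.00129) and Trim47 (-0.20, 0.000459). In that setting, picked from these data, more of all genes tested passed too, as given above.

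**Figure D5:**
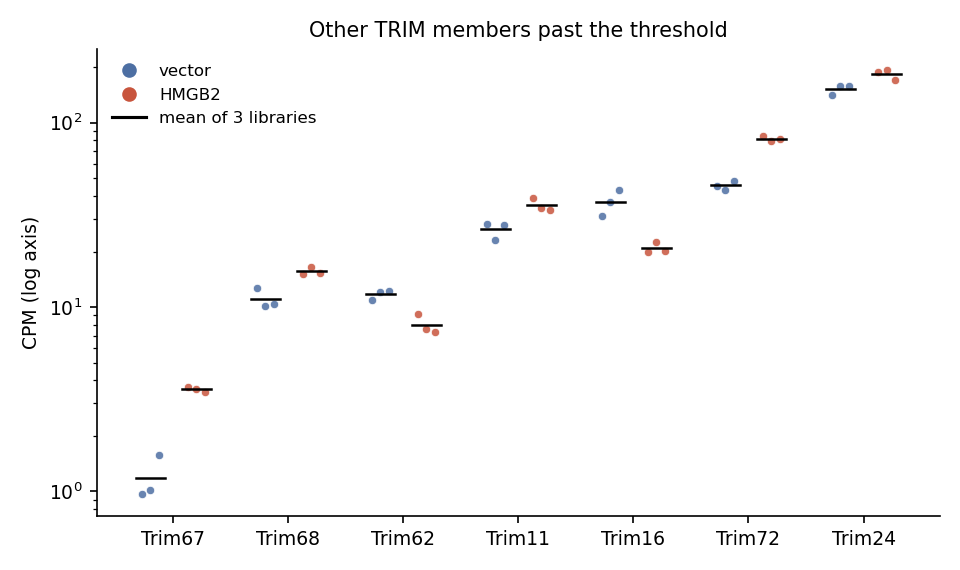
CPM of the 7 other members that passed the threshold, in each library (log axis, points for libraries and black lines for the mean of 3). Trim16 and Trim62 lie lower with HMGB2, at 19.9 to 22.5 and 7.33 to 9.14 CPM, and the other 5 lie higher.

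The remaining 21 of the other members did not pass, with log2 fold changes of -0.71 to 1.13, and 19 of them lay within 0.25 of 0. The highest, Trim43b, was at 0.160, 0.730 and 0.572 CPM with the vector and at 1.80, 1.17 and 0.303 CPM with HMGB2, so the groups overlapped (log2 fold change 1.13, edgeR adjusted p = 0.257). Without both vector 1 and HMGB2 3 it passed (1.198, adjusted p = 0.0393), and 87.5% of its transcript is nearly identical to Trim43c. None of the 4 members with NHL repeats and neither of the 2 transmembrane members passed. Trim28, Trim33, Trim43b, Trim47, Trim8 and Trim3 were named after their values were seen. Trim8 and Trim3 had HMGB2 libraries all below their vector libraries, with log2 fold changes of -0.17 and -0.12 (edgeR adjusted p = 0.112 and 0.276). The member with the highest level per length in both groups was Trim47, at 69.3 FPKM with the vector and 61.7 FPKM with HMGB2. Trim28 was second with the vector at 43.0 FPKM, and with HMGB2 Trim55 took the second place at 44.6 FPKM, up from the tenth, ahead of Trim28 at 38.0 FPKM.

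The 3 TRIM genes with other symbols that could be tested were Pml, Mid2 and Mid1, and Mefv was too low to be tested. Pml, the organiser of nuclear bodies and an interferon-stimulated gene, was at 44.7, 50.2 and 53.8 CPM with the vector and at 97.9, 104 and 82.3 CPM with HMGB2 (log2 fold change 0.93, edgeR adjusted p = 0.000238, SE 0.11). Its groups lay far apart. Mid2 had a log2 fold change of 0.33 (edgeR adjusted p = 0.0204), lost without HMGB2 1 (0.0810) or HMGB2 2 (0.0918). Its relative Mid1, which binds microtubules, was at 21.05 and 16.2 CPM and did not pass (adjusted p = 0.298).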

How the data were processed

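RNA sequencing covered 3 vector and 3 HMGB2 libraries. Per the labels' protocols, TRIzol was used for extraction and a VAHTS Universal V5 kit for library construction. Tools named in the submitters' processing notes, with no role, are HTSeq 0.6.1, StringTie 1.3.3b, HISAT2 2.2.1 and FastQC 0.10.1, and the build named is mm10. The authors deposited raw counts for each Ensembl gene and library, in whole numbers with no normalization, and a table of FPKM values for the same genes and libraries. The count test was that of edgeR 4.0.16 (R 4.3.3, filterByExpr with a minimum count of 10 and a minimum total of 15, TMM scaling, robust quasi-likelihood F-test, group as the only term). The p-values were adjusted by Benjamini-Hochberg over all 15429 genes tested, and an adjusted p under 0.05 was called. The SE of a log2 fold change is its size over the square root of F. FPKM served to compare levels between genes and, with limma 3.58.1, as an alternative. DESeq2 1.42.0, other scaling, no filter and left-out libraries were further alternatives. The test was tried on simulated data first.

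The members and gene lists were chosen with earlier results of these data known. Per-library values are given for the muscle and antiviral members and for the other members past the threshold (up to 10 by smallest p), and from each pathway list up to 4 genes past the threshold with the smallest p are named. Positions are from GENCODE M21 on GRCm38, matched by Ensembl identifier for all 46 members, since positions in the deposited tables differ from it. Promoter windows are from RefSeq on GRCm38.p6, with 35 of 46 members matched by symbol. Shared transcript sequence was found by aligning member transcripts to all transcripts.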

Additional observations from a re-analysis of the deposited data

How the results depend on the processing

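Of the 20 members past the threshold, 12 kept their call and direction in all 14 alternatives, 11 of the 18 that rose (Trim12c, Trim14, Trim21, Trim25, Trim30a, Trim30d, Trim34a, Trim34b, Trim55, Trim63 and Trim72) and 1 of the 2 that fell (Trim16). Trim14 met the count minimum through its HMGB2 libraries, as given above. Members that rose numbered 12 to 20. The log2 fold change was 1.55 to 1.65 for Trim55, 1.63 to 1.80 for Trim63 and 0.010 to 0.147 for Trim54. At low levels it fell with the pseudocount, from 1.63 on log2(FPKM + 0.1) to 0.484 on log2(FPKM + 1) for Trim14, from 1.92 to 0.888 for Trim30d and from 1.12 to 0.311 for Trim67. On counts it reached 2.43 for Trim14 and 2.41 for Trim30d without vector 2 and 1.83 for Trim67 without vector 3. On log2(FPKM + 1) with no filter, limma called 1387 genes higher and 671 lower, and 1 member lower, and Trim67 was not called (adjusted p = 0.0718). Without vector 1 and HMGB2 3, 2986 genes fell, among them 5 members, and Trim46 had 0.29. Leaving out 1 library at a time gave 866 to 1960 lower genes (866 without HMGB2 1, 897 without HMGB2 2, 973 without vector 2) and 1 to 3 lower members (1 without vector 2, vector 3 or HMGB2 2), and the cause was not tested. With 1 library left out, of members not called Trim23 ranged from -0.12 to 0.0072 (positive without vector 1) and Trim46 from -0.13 to 0.26 (negative without HMGB2 2, and -0.023 without vector 2).

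The labels give both groups replicate numbers 1 to 3, but same-numbered libraries did not deviate together (correlations of -0.318, 0.231 and -0.375), and vector 1 correlated best with HMGB2 3 (0.521). With the replicate number as a block, 1459 genes rose and 754 fell, and 13 members rose and 1 fell. The calls lost with this replicate block were Trim24 (adjusted p = 0.140), Trim26 (0.0622), Trim56 (0.0690), Trim6 (0.105), Trim62 (0.0567) and Trim68 (0.0569). Depth limits the members under 5 CPM, where a few counts set the fold.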
